A study of Mus musculus with 8 samples.

Results

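The genes described here lie on mouse chromosome 3 around Npr1, the gene for natriuretic peptide receptor A (NPRA). They were taken from a list of 59 symbols and found on the arrays through the RefSeq transcript of each probe. Of these, 58 genes were measured, by 86 probes, out of 19056 named genes and 35329 probes tested in all. Tdrd10 was listed but not matched to a probe. In mice with a targeted gene, linked chromosome from the founder can be carried along with the edited allele, and an edited locus can alter its neighbours. The question was therefore whether this linked block differed between the genotypes.

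NPRA binds the natriuretic peptides of the atria and ventricles and makes cyclic GMP, and in heart muscle this pathway is known for its restraint of growth and fibrosis. The flanking genes have no common function. They encode, among others, RNA-binding proteins, transcription factors, proteins of membrane traffic, ephrin ligands, proteases and the A-type lamins, and several are housekeeping genes active in most tissues. Ints3, a subunit of the Integrator complex that cleaves nascent RNA, is the nearest listed gene before Npr1 in the order of the RefSeq table. Ilf2, which encodes an RNA-binding protein, is the nearest listed gene after it.

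The promoters of these 3 genes are shown because they are the regulatory sequence of the listed genes closest to the targeted locus. Each is the 250 bases before the start of the gene in RefSeq for GRCm38.p6, written 5′ to 3′ on the gene's own strand, at chr3:90465867-90466116 for Npr1 (minus strand), chr3:90433637-90433886 for Ints3 (minus strand) and chr3:90475951-90476200 for Ilf2 (plus strand). Capitals mark matches on either strand to CCAAT, the CCAAT box, or to GGGCGG, the GC box.
Npr1: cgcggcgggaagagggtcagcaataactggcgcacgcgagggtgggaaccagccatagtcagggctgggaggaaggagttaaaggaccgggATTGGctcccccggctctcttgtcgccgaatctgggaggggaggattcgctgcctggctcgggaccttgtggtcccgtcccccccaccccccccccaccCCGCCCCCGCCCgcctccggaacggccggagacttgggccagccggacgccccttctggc
Ints3: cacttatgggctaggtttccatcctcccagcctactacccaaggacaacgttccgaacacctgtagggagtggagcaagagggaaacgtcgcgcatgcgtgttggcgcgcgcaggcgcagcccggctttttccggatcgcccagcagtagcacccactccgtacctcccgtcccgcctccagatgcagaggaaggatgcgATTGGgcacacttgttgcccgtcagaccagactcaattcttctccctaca
Ilf2: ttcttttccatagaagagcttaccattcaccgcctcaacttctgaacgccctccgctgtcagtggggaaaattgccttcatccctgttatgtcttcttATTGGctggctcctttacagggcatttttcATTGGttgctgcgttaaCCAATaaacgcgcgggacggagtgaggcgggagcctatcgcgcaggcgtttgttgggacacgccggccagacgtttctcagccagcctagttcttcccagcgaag

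The Npr1 promoter held 1 CCAAT match, 2 adjoining GC boxes and 21 CpG dinucleotides. Ints3 held 1 CCAAT match, no GC box and 18 CpG dinucleotides, and Ilf2 held 3 CCAAT matches, no GC box and 16 CpG dinucleotides. Promoter sequences were found for 52 of the listed genes (75 promoters, since some genes have several starts). CCAAT was in 45.3% of these promoters, against 33.9% of all 32851 promoters in the table. The GC box was in 60.0% of them, against 32.7%. TATAAA, the TATA box, was in 6.67% against 12.4%, and the cyclic AMP response element TGACGTCA was in 1.33% against 1.55%. None of the 4 motifs contains another. The median number of CpG dinucleotides was 11 in promoters of listed genes and 6 in all promoters. These are matches of letters, searched on both strands.

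Expression was measured in heart muscle (myocardium) from male mice that had no treatment. The 3 arrays labelled NPRA-/- come from a conditional model with floxed NPRA alleles described by the series title as a cardiac-specific loss, and 5 arrays are labelled NPRA+/+. The labels do not state the promoter that drives the recombinase, the age and strain of the mice, whether NPRA+/+ mice carry floxed alleles or the recombinase, or which exons were removed. All mice were killed under isoflurane and CO2. Each array received Cy3-labelled RNA of 1 sample, and nothing in the labels ties a sample to an animal, so the errors below measure the spread between these samples.

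Between 79.5% and 92.6% of probes were well above background per array. The 9 cardiomyocyte markers were all measured, at a mean log2 level of 5.27 to 7.45 relative to each array's 75th percentile, the scale of all levels given here. The arrays were scanned on 4 days and at 6 scan times, none of which held both genotypes. Arrays with the same scan time were taken as sharing a slide, which no label states. Replicate 1 of each genotype was scanned on a day of its own (NPRA-/- on day 3, NPRA+/+ on day 4). These 2 arrays stood apart from the other 6 on the first principal component, which held 47.3% of the variance. Day 1 alone held both genotypes, with NPRA-/- replicates 2 and 3 and NPRA+/+ replicates 2 and 3, and NPRA+/+ replicates 4 and 5 were scanned on day 2. In such bulk tissue, fewer cells of a type and less RNA per cell cannot be told apart.

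The probe for Npr1 itself read -6.42, -5.53 and -5.59 in the NPRA-/- arrays and -4.77, -6.14, -6.55, -6.00 and -5.93 in the NPRA+/+ arrays. These values overlapped and lay near background, which the probe clearly exceeded on 2 of the 3 and 4 of the 5 arrays. The fitted difference was 0.03 ± 0.40 (log2, NPRA-/- minus NPRA+/+, ± SE). Dim probes shared a shift upward, as given below, and relative to the median of probes with like signal Npr1 stood at -0.63. The fitted difference ranged from -0.59 to 0.78 over 24 alternatives, kept its sign in 13 of them, and passed the threshold in 1, with array weights (0.58, adjusted p = 0.0458). The probe's place relative to the deleted part is not known, so it does not check the labels.

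None of the 58 flanking genes passed the test between the genotypes. With limma and Benjamini-Hochberg adjustment over all 35329 probes, 0 of 58 genes and 0 of their 86 probes had an adjusted p under 0.05, while 0.348% of all probes (0.320% higher and 0.0283% lower) and 0.320% of all genes did. The smallest adjusted p among the flanking genes was 0.0631, for Nup210l. At an unadjusted p under 0.05, 5 flanking genes were higher in NPRA-/- myocardium (8.62%) and 0 were lower, against 16.2% higher and 1.24% lower of all genes. Of the 86 probes, 11 were higher and 0 lower at that p, against 18.3% and 1.36% of all probes. The split of these counts followed the scaling. With quantile normalization 1 flanking gene was higher and 1 lower, against 3.98% and 3.27% of all genes. With scaling to the median 3 were higher and 2 lower, against 5.38% and 5.78%, and the median fitted difference of the flanking genes was -0.19. The values of the genotypes did not overlap for 3 flanking genes, or 5.17%, against 14.1% of all genes. By each of these counts the flanking genes were called no more often than genes elsewhere. The counts were not matched for signal, and they do not compare like with like. The median flanking gene was brighter than the median gene, and differences were larger in dim probes, as given below.

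The fitted differences of the block were small. Their median was 0.10 on the log2 scale, with 40 of 58 above 0, while the median over all genes was 0.16, with 71.9% above 0, and over all probes 0.21. That common shift was larger in dim probes. When all probes were put into 20 equal groups by mean signal, the median difference was 0.77 in the dimmest group and 0.01 in the 17th. Differences are therefore also given relative to the group of like signal. On that scale the flanking genes had a median of 0.05 and ranged from -0.53 to 0.77, and 54 of 58 lay within 0.5 of zero (93.1%, against 88.0% of all genes). On each array, the median level of the flanking genes stood above the median of all genes by 2.65 ± 0.083 (SD, n = 3) in NPRA-/- and by 2.63 ± 0.094 (SD, n = 5) in NPRA+/+. The difference of 0.02 was smaller than the pooled SD between arrays of 0.091, but it was not matched for signal. Relative to probes of like signal, the array medians of the flanking genes were -0.007 ± 0.028 (SD, n = 3) in NPRA-/- and -0.030 ± 0.048 (SD, n = 5) in NPRA+/+. The 95% interval of the fitted difference lay within 1 log2 unit of zero for 48 of the 58 genes.

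Medians by position in the block ranged from -0.06 to 0.14 relative to like signal. Counts of higher and lower genes are as fitted, a scale on which 71.9% of all genes were above 0. Of the 58, 43 lie before Npr1 in the gene order (Hdgf to Ints3) and 15 after. Among the 11 nearest before Npr1 (Tpm3 to Ints3), 7 were higher and 4 lower in NPRA-/-, with a median relative to like signal of 0.00. The next 11 (Pygo2 to Ubap2l) had a median of 0.14, with 8 higher and 3 lower. The next 11 (Muc1 to Shc1) had a median of 0.12, with 9 higher and 2 lower, and the farthest 10 (Hdgf to Thbs3) had a median of -0.06, with 4 higher and 6 lower. After Npr1, the 3 nearest (Ilf2, Snapin and Chtop) had a median of 0.06. A further 143 genes separate them from Snx27 to Ecm1, whose 12 genes had a median of 0.04, with 10 higher and 2 lower. Relative to like signal, 25 of the 43 genes before Npr1 and 7 of the 12 from Snx27 to Ecm1 were above 0, against 50.5% of all genes. No group had its members all on one side.

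**Figure D1:**
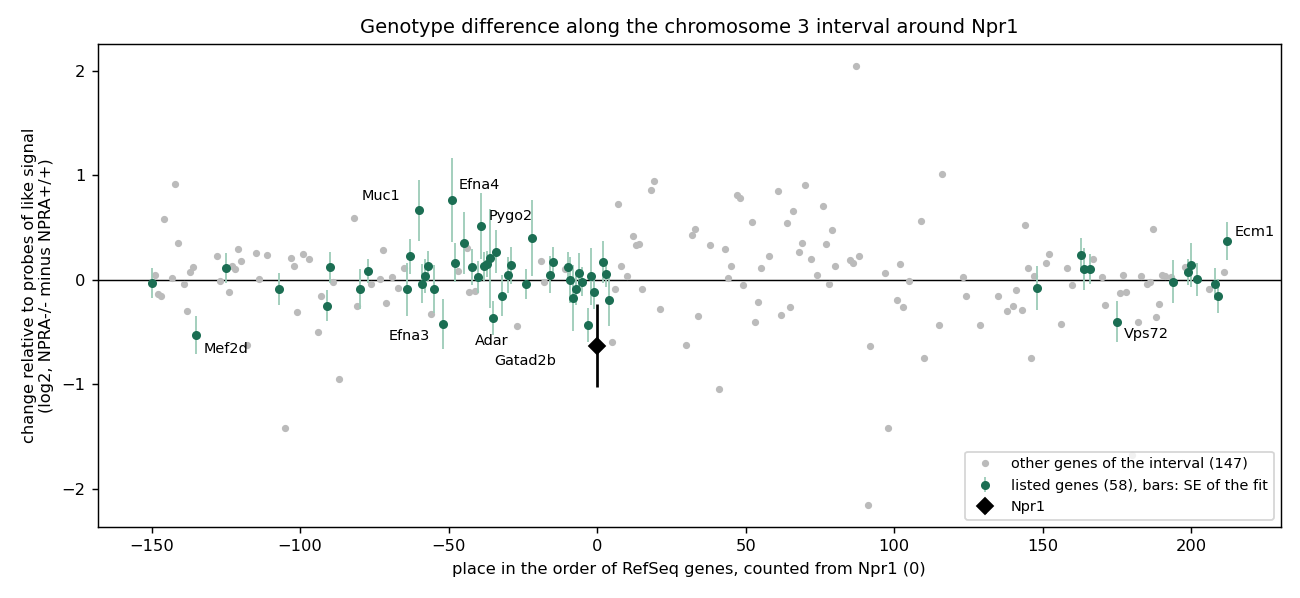
Fitted difference of each gene relative to probes of like signal (y axis, log2, NPRA-/- minus NPRA+/+) against its place in the RefSeq gene order counted from Npr1 (x axis), for the 58 listed genes (green, bars are the SE of the fit), 147 other genes of the interval (grey) and Npr1 (black). The green points scatter around zero at all distances, and 54 of 58 lie within 0.5 of it, with Efna4 the highest at 0.77 and Mef2d the lowest at -0.53. The Npr1 point lies below them at -0.63, with an SE of 0.40.

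The 8 listed genes nearest Npr1, 4 on each side, had overlapping genotypes at the probe that stood for each gene. Ints3 read 0.77, 1.33 and 1.15 in NPRA-/- and 1.37, 1.01, 1.12, 1.26 and 1.20 in NPRA+/+, a fitted difference of -0.11 ± 0.16 (limma adjusted p = 0.763; 95% interval -0.48 to 0.26). NPRA-/- replicate 1 was the lowest of the 8 arrays and the other 2 lay within the NPRA+/+ range. Ilf2 read 1.43, 1.50 and 1.37 in NPRA-/- and 1.21, 1.49, 1.46, 1.42 and 0.68 in NPRA+/+, a fitted difference of 0.18 ± 0.20 (adjusted p = 0.668; 95% interval -0.28 to 0.65). NPRA+/+ replicate 5 was the lowest array, and NPRA-/- replicate 2 exceeded the highest NPRA+/+ value by less than the spread of either group. The other Ilf2 probe differed by 0.16 ± 0.12.

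Snapin, which encodes a SNARE-associated protein of lysosome and vesicle transport, read 2.88, 2.92 and 2.91 in NPRA-/- and 2.65, 2.87, 2.89, 3.01 and 2.69 in NPRA+/+. The NPRA-/- values lay inside the NPRA+/+ range, and the fitted difference was 0.08 ± 0.13 (adjusted p = 0.778; 95% interval -0.21 to 0.38). Its other probes differed by 0.14 and -0.08. On the other side of Ints3, Slc27a3, a member of the fatty acid transport family, differed by 0.28 ± 0.28, Gatad2b, a subunit of the NuRD chromatin complex, by -0.06 ± 0.16, and Dennd4b, an exchange factor for Rab proteins, by -0.01 ± 0.14. Snx27, a sorting nexin that recycles endosomal cargo, differed by -0.05 ± 0.21 at one probe and by 0.00 ± 0.15 at the other.

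Chtop was the neighbour whose probes disagreed most. It encodes a protein of the TREX complex, which exports mRNA from the nucleus. Its brightest probe read 1.23, 2.03 and 2.03 in NPRA-/- and 1.39, 2.14, 2.08, 2.04 and 2.06 in NPRA+/+, a fitted difference of -0.18 ± 0.25 (adjusted p = 0.746), in which replicate 1 of both genotypes was low. The probe A_51_P314339 read 1.46, 1.31 and 1.23 in NPRA-/- and 0.81, 0.84, 0.60, 0.92 and 0.84 in NPRA+/+. Here every NPRA-/- value lay above every NPRA+/+ value, by a fitted difference of 0.53 ± 0.13 (adjusted p = 0.0874). The third Chtop probe differed by 0.02 ± 0.22. The difference at A_51_P314339 was 0.52 after quantile normalization (adjusted p = 0.374) and 0.55 on scan day 1 alone (adjusted p = 0.0537). It passed in 2 of 24 alternatives, with array weights (0.50, adjusted p = 0.00533) and without NPRA+/+ replicate 1 (0.54, adjusted p = 0.0409). The probe was 1 of 7 probes of the block without overlap between genotypes, 8.14% of 86 against 15.4% of all probes.

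Among the other RNA-binding genes, Adar encodes the enzyme that edits adenosine to inosine in double-stranded RNA. Its brightest probe read -1.42, -1.11 and -0.93 in NPRA-/- and -1.17, -0.76, -0.79, -0.82 and -0.88 in NPRA+/+, a fitted difference of -0.27 ± 0.16 (adjusted p = 0.390). This was the lowest fitted difference of the 58 genes, yet NPRA+/+ replicate 1 lay below NPRA-/- replicates 2 and 3. The second Adar probe read -0.50, -1.31 and -1.11 in NPRA-/- and -0.48, -1.40, -1.20, -1.36 and -1.31 in NPRA+/+, a fitted difference of 0.18 ± 0.27. There the 2 replicate 1 arrays were the highest. Of the 4 measured genes of RNA binding and processing (Adar, Ints3, Ilf2 and Chtop), 0 passed, 1 was higher and 3 were lower at the probe standing for the gene.

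The 3 genes without overlap between genotypes were Nup210l, Rab13 and Chrnb2, all weakly measured here. Nup210l encodes a relative of a nuclear pore glycoprotein. It read -5.10, -4.98 and -4.85 in NPRA-/- (mean -4.98 ± 0.13, SD, n = 3) and -5.65, -5.99, -5.68, -5.80 and -5.60 in NPRA+/+ (mean -5.74 ± 0.16, SD, n = 5). The fitted difference of 0.76 ± 0.14 had a limma adjusted p of 0.0631. Probes of like signal shared most of it: relative to them the difference was 0.17, and after quantile normalization it was 0.19 (adjusted p = 0.785). On NPRA+/+ arrays the probe was well above background on 4 of 5.

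Rab13 encodes a small GTPase of vesicle traffic to cell junctions. It read -4.20, -4.23 and -4.30 in NPRA-/- and -5.05, -4.87, -4.54, -4.88 and -4.82 in NPRA+/+, a fitted difference of 0.59 ± 0.14 (adjusted p = 0.0874). The NPRA-/- arrays lay close together and all above NPRA+/+, but relative to probes of like signal the difference was 0.13, as it was after quantile normalization. Chrnb2, a subunit of neuronal nicotinic acetylcholine receptors, read -4.15, -4.26 and -4.32 in NPRA-/- and -4.42, -4.99, -5.00, -5.23 and -5.25 in NPRA+/+. Its fitted difference was 0.73 ± 0.20 (adjusted p = 0.111), and 0.27 relative to like signal. Beside it, the 4 Schwann cell markers were all higher in NPRA-/- with 0 past the threshold, and their mean level was -1.43 to -1.35 in NPRA-/- and -1.94 to -1.68 in NPRA+/+. Their part in the Chrnb2 values was not tested.

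**Figure D2:**
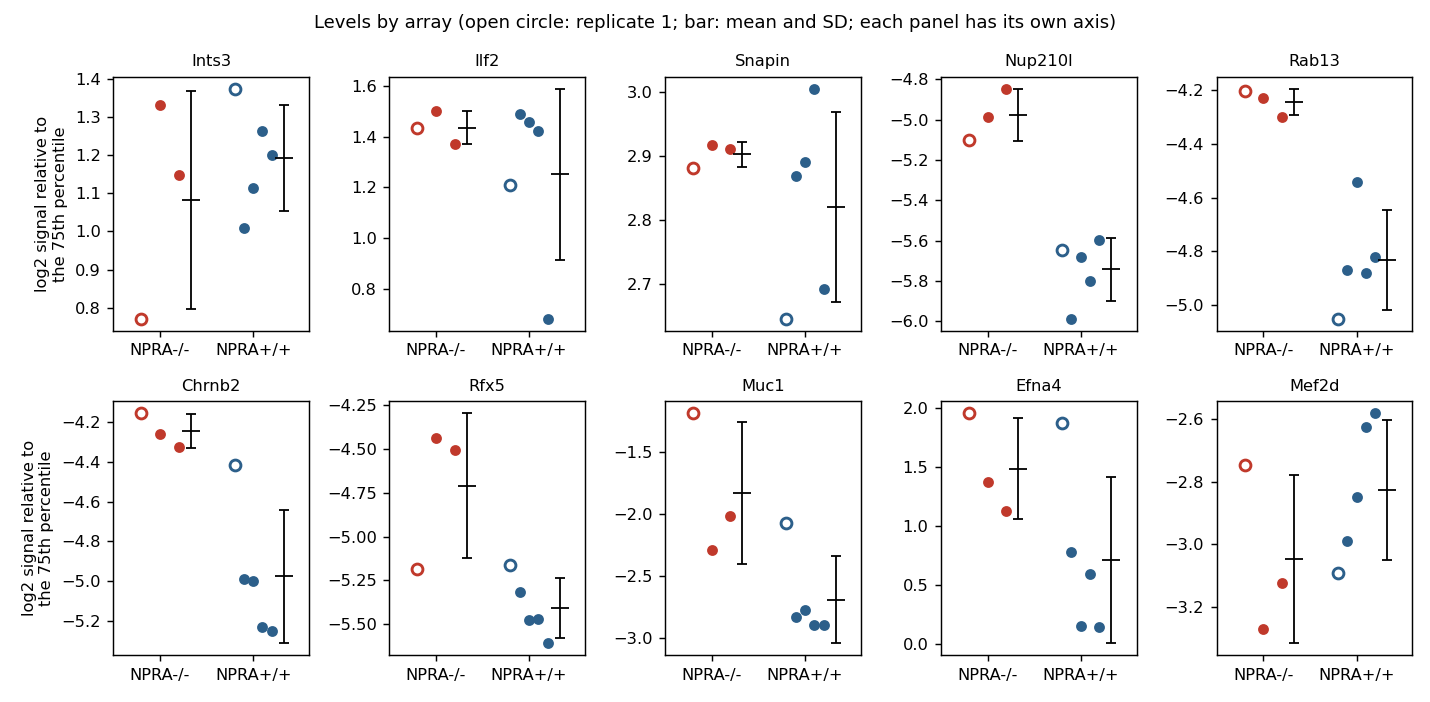
Log2 signal relative to the array's 75th percentile (y axis, its own range in each panel) on each of the 3 NPRA-/- (red) and 5 NPRA+/+ (blue) arrays for 10 genes; the open circle is replicate 1 and the bar the mean with SD. Ints3, Ilf2 and Snapin overlap between genotypes, Nup210l, Rab13 and Chrnb2 do not, and in Muc1 and Efna4 replicate 1 is the highest array of its genotype.

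The receptors, ligands, channels and adaptors were 10 genes, of which 0 passed, 7 were higher and 3 lower. Muc1, a membrane mucin of epithelia, read -1.19, -2.29 and -2.02 in NPRA-/- and -2.07, -2.83, -2.77, -2.90 and -2.90 in NPRA+/+. The ranges overlapped only through NPRA+/+ replicate 1, which exceeded NPRA-/- replicate 2. Replicate 1 was the highest array of each genotype. The fitted difference was 0.86 ± 0.29 (adjusted p = 0.162; 95% interval 0.19 to 1.53), the largest among the brightest probes of the 58 genes, and 0.67 relative to like signal. On scan day 1 alone it was 0.65 with an adjusted p of 0.0447. That test called 5979 probes over the whole table, against 123 with all arrays. Each genotype had a scan time of its own on that day, so genotype and slide cannot be told apart there.

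Markers of mesothelium, the epithelium that covers the heart, were also higher in NPRA-/-. All 6 were higher in NPRA-/- and 1 passed, Msln, which encodes mesothelin, by 2.48 ± 0.36 (adjusted p = 0.0498). With a replicate block Msln did not pass (adjusted p = 0.136 by repetition number and 0.0838 by source name number). Nor did it pass in limma after quantile normalization (adjusted p = 0.321), scaling to the median (0.167) or normexp background correction (0.189). In the deposited series table its adjusted p was 0.325, and with detection on all 8 arrays 0.0524. The difference stayed positive in each, from 1.83 with normexp to 2.66 with the block by repetition number. The mean level of the 6 markers was -3.83, -3.42 and -2.83 in NPRA-/- and -5.65 to -4.86 in NPRA+/+. The probes for Krt19, Lrrn4 and Upk3b clearly exceeded background in all 3 NPRA-/- samples, but in only 2, 2 and 1 of the 5 NPRA+/+ samples. Their NPRA+/+ values, from -8.21 to -6.07, lay near the floor. The size of their differences, and of the NPRA+/+ mean level, is therefore uncertain. The part of the 6 markers in the Muc1 values was not tested.

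Efna4 and Efna3 encode membrane-anchored ephrin ligands of Eph receptors. Efna4 read 1.96, 1.38 and 1.13 in NPRA-/- and 1.87, 0.78, 0.15, 0.60 and 0.15 in NPRA+/+, a fitted difference of 0.78 ± 0.40 (adjusted p = 0.330). Without NPRA+/+ replicate 1, which read nearly as high as NPRA-/- replicate 1, the difference was 1.07 (adjusted p = 0.0394), in a fit that called 4088 probes. Efna3 differed by -0.11 ± 0.24 at its brightest probe and by 0.95 ± 0.40 at a dim one, which was 0.18 relative to like signal. Rit1, a Ras-like GTPase, read 2.68, 3.03 and 2.83 in NPRA-/- and 2.79, 3.20, 3.06, 3.12 and 3.17 in NPRA+/+, a fitted difference of -0.22 ± 0.15 (adjusted p = 0.456) with overlapping arrays.

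Of the 13 genes for transcription factors, cofactors and chromatin proteins, 0 passed. As fitted, 9 were higher and 4 lower, and 6 of the 13 were above 0 relative to like signal. Rfx5, which activates promoters of major histocompatibility class II genes, read -5.19, -4.44 and -4.50 in NPRA-/- and -5.16, -5.32, -5.48, -5.47 and -5.61 in NPRA+/+, a fitted difference of 0.70 ± 0.20 (adjusted p = 0.119). NPRA-/- replicate 1 lay inside the NPRA+/+ range and the other 2 above it. The second Rfx5 probe differed by 1.04 ± 0.49, and relative to like signal the probes differed by 0.11 and 0.38. Macrophages carry such class II molecules: of their 5 measured markers 5 were higher in NPRA-/- and 0 passed, at a mean level of 0.77 to 0.92 in NPRA-/- and 0.40 to 0.82 in NPRA+/+. Their part was not tested.

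Mef2d, a MADS-box factor of muscle gene expression, stood lowest of the block relative to probes of like signal. It read -2.75, -3.27 and -3.12 in NPRA-/- and -3.09, -2.99, -2.85, -2.63 and -2.58 in NPRA+/+, a fitted difference of -0.22 ± 0.18 (adjusted p = 0.550), or -0.53 relative to like signal and -0.51 after quantile normalization (adjusted p = 0.584). NPRA-/- replicates 2 and 3 were the lowest of the 8 arrays and replicate 1 lay among NPRA+/+. The second Mef2d probe differed by -0.12 ± 0.17, or -0.47 relative to like signal, but after normexp background correction the difference of both probes turned positive, 0.14 and 0.28. Hdgf, a growth factor that binds chromatin, differed by 0.00 ± 0.14 at its brightest probe and by 0.52 ± 0.20 at a dim one.

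Several other probes of this class were singled out after their values were seen. The second Crtc2 probe, for a coactivator of cyclic AMP signalling, did not overlap between genotypes and differed by 0.74 ± 0.22 (adjusted p = 0.120), while its brightest differed by 0.10 ± 0.19. Zbtb7b, a zinc finger repressor, had probes that differed by 0.37 ± 0.30, 0.32 ± 0.13 and 0.98 ± 0.54, of which the second did not overlap. Pygo2, a cofactor of Wnt signalling, differed by 0.53 ± 0.32 over 7 arrays, because NPRA+/+ replicate 5 carried a spot outlier mark and was left out.

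Lmna encodes the A-type lamins of the nuclear envelope, known for their mutations in dilated cardiomyopathy. It read 2.20, 2.09 and 2.06 in NPRA-/- and 1.87, 2.32, 2.38, 2.11 and 2.30 in NPRA+/+, a fitted difference of -0.08 ± 0.15 (adjusted p = 0.824; 95% interval -0.42 to 0.27). The NPRA-/- values lay inside the NPRA+/+ range. Mcl1, an anti-apoptotic protein that heart muscle needs, read 3.94, 4.03 and 4.00 in NPRA-/- and 3.70, 4.26, 4.17, 3.83 and 3.84 in NPRA+/+. Its fitted difference was 0.03 ± 0.16 (adjusted p = 0.944), and its second probe gave -0.24 ± 0.19. Both genes held their NPRA-/- arrays within the range of the NPRA+/+ arrays at the brightest probe.

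In the remaining classes 0 genes passed. The 5 genes of mitochondria, survival and cell division had a median of -0.04 relative to like signal, from -0.15 to 0.00, among them Hax1, a mitochondrial survival protein (-0.01 ± 0.15 and 0.04 ± 0.16 as fitted), and Ensa, an inhibitor of protein phosphatase 2A (-0.01 ± 0.16 and 0.21 ± 0.12). The 7 genes of metabolism and transport had a median of 0.12, with 6 higher and 1 lower as fitted, and the 7 of membrane traffic a median of 0.08. Of the 3 genes of protein folding and ubiquitin, Ube2q1, a ubiquitin-conjugating enzyme, differed by -0.12 ± 0.20, and Ubap2l, named after its values were seen, by 0.46 ± 0.36 (adjusted p = 0.532), or 0.40 relative to like signal. Trim46, an organizer of microtubules, differed by 0.38 ± 0.19 (adjusted p = 0.308) but by -0.04 relative to like signal.

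All 5 genes of extracellular matrix and proteases were higher as fitted, and 0 passed. Their median relative to like signal was 0.16, from 0.01 to 0.37. The highest was Ecm1, a secreted matrix glycoprotein, which read 2.00, 1.28 and 1.74 in NPRA-/- and 1.29, 1.18, 1.34, 1.15 and 1.48 in NPRA+/+, a fitted difference of 0.38 ± 0.18 (adjusted p = 0.291). NPRA-/- replicate 2 lay inside the NPRA+/+ range. A second, dimmer Ecm1 probe did not overlap between genotypes and differed by 0.62 ± 0.15 (adjusted p = 0.0842), of which 0.09 was left relative to like signal. Beside this class, 3 of the 6 fibroblast markers were higher in NPRA-/- and 0 passed, at a mean level of 2.30 to 2.74 in NPRA-/- and 2.24 to 2.49 in NPRA+/+.

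In more genes of the block, the replicate 1 arrays stood apart from the rest than the genotypes from each other. Chance alone sets 2 arrays apart from 6 more often than 3 from 5, so the 2 splits are not like for like. In 23 of 58 genes (39.7%) both replicate 1 arrays lay outside the range of the other 6 on the same side, 7 higher and 16 lower, and so did 33 of 86 probes (38.4%). Over all genes the share was 38.0% and over all probes 37.6%, so the flanking genes did so about as often as the rest. Across the 86 probes, the deviation of NPRA-/- replicate 1 from its 2 group mates and that of NPRA+/+ replicate 1 from its 4 correlated with a Pearson r of 0.89 and a Spearman rho of 0.68. Without the 3 Tpm3 probes r was 0.68, against 0.64 over all probes. These probes share the arrays and are not independent. Of the 86, 59 deviated in the same direction on both arrays (68.6%, against 72.3% of all probes).

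Tpm3, which encodes a tropomyosin of actin filaments with several isoforms, held the widest such gap. Its brightest probe, designed to transcript NM_001253738, read 2.62, 2.78 and 3.08 in NPRA-/- and 2.40, 2.79, 3.06, 2.79 and 2.72 in NPRA+/+, a fitted difference of 0.08 ± 0.18 (adjusted p = 0.859). The probe for NM_001253740 read -0.35, -2.45 and -2.30 in NPRA-/- and 0.19, -2.29, -2.19, -1.86 and -2.18 in NPRA+/+, a fitted difference of -0.03 ± 0.69. The probe for NM_022314 read -1.17, -5.49 and -6.95 in NPRA-/- and 0.92, -7.14, -8.38, -4.88 and -5.95 in NPRA+/+, a fitted difference of 0.55 ± 2.13. On the latter 2 probes, both replicate 1 arrays were far above the other 6, by 2.13 and 6.34 in the mean, while at the brightest probe they were lower by 0.36. The NM_022314 probe clearly exceeded background on 2 NPRA-/- and 3 NPRA+/+ arrays.

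The mean levels of the muscle marker lists differed between the same arrays. The cardiomyocyte list stood at 7.45 in NPRA-/- replicate 1 and 7.18 in NPRA+/+ replicate 1, against 5.27 to 6.29 in the other 6. The skeletal muscle list stood at -2.49 and -1.90, against -4.03 to -2.96, but its 4 markers did not move together. At Myh4 the mean of the 2 replicate 1 arrays exceeded that of the other 6 by 6.14. The same gap was 0.34 at Tnnt3, 0.19 at Acta1 and -1.50 at Myh1. The part of these differences in the Tpm3 values was not tested, and scan day and replicate 1 cannot be told apart.

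**Figure D3:**
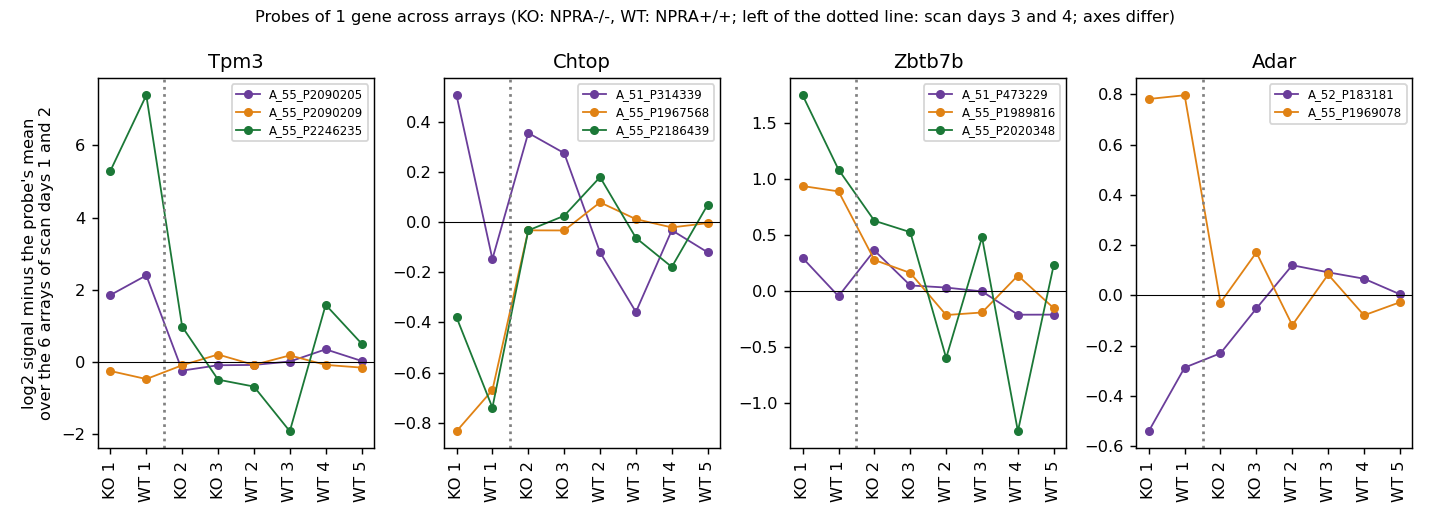
Log2 signal of each probe of Tpm3, Chtop, Zbtb7b and Adar minus that probe's mean over the 6 arrays of scan days 1 and 2 (y axis, its own range in each panel), on the 8 arrays (x axis; KO is NPRA-/- and WT is NPRA+/+), with scan days 3 and 4 left of the dotted line. Probes of 1 gene part ways on the 2 replicate 1 arrays: 2 of the 3 Tpm3 probes lie above zero there and the brightest below, and the Adar probes lie on opposite sides.

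Other probes with a gap of this kind were picked after their values were seen. The mean of the 2 replicate 1 arrays exceeded that of the other 6 by 1.53 at the dimmer Rfx5 probe, by 1.37 at the brightest probe of Kcnn3, a calcium-activated potassium channel, by 1.22 at Efna4 and by 1.15 at the brightest Ubap2l probe. It lay below by -0.81 at Creb3l4, a membrane-bound transcription factor, and by -0.75 at the brightest Chtop probe. Of the 23 genes with more than 1 probe, 9 had probes whose fitted genotype differences had opposite signs (Adar, Chtop, Efna3, Ensa, Hax1, Hdgf, Mcl1, Snapin and Tpm3). In 2 of the 23, Adar and Tpm3, the replicate 1 arrays lay above all others at one probe and below all others at another.

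**Figure D4:**
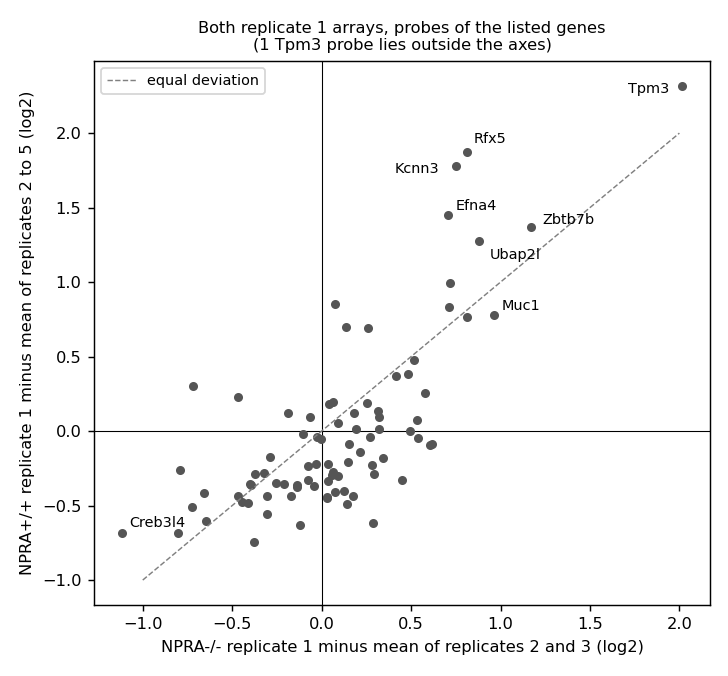
Deviation of NPRA+/+ replicate 1 from the mean of replicates 2 to 5 (y axis, log2) against that of NPRA-/- replicate 1 from the mean of replicates 2 and 3 (x axis, log2), 1 point for each probe of the listed genes; the dashed line marks equal deviation. Of 86 probes, 59 (68.6%, against 72.3% of all probes) lie in the quadrants where both arrays deviate in the same direction, 29 with both higher and 30 with both lower. The axes leave out 1 Tpm3 probe at the upper right.

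With the arrays of scan days 3 and 4 left out, the difference between genotypes was past the threshold for 4 flanking genes, all higher in NPRA-/-. Nup210l differed by 0.85 (adjusted p = 0.0260), Chrnb2 by 0.83 (adjusted p = 0.0248), Muc1 by 0.70 (adjusted p = 0.0267) and Rfx5 by 1.00 (adjusted p = 0.0229). This comparison, chosen after the data were seen, called 4134 probes in all, against 123 over all arrays. After quantile normalization of these arrays limma called 0 probes, with 7337 at an unadjusted p under 0.05, and the smallest adjusted p of the flanking genes was 0.122. On scan day 1 alone 6 flanking genes were past the threshold, the same 4 with Kcnn3 higher and Efna3 lower. Genotype and slide cannot be told apart on that day.

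The interval from Hdgf to Ecm1 holds 364 RefSeq genes, 305 of them neither listed nor Npr1, and 147 of those were tested. Of these, 2 passed, both higher in NPRA-/-, while 0.320% of all genes passed. At an unadjusted limma p under 0.05, 22.4% of the 147 were higher and 1.36% lower, against 16.2% and 1.24% of all genes. The genotypes did not overlap in 17.7% of the 147, against 14.1% of all genes. These shares were not matched for signal. Tdpoz3, of a family of genes with TRAF and POZ domains, read -3.76, -4.51 and -4.18 in NPRA-/- and -5.60, -5.73, -5.74, -5.79 and -5.58 in NPRA+/+, a difference of 1.54 ± 0.18 (adjusted p = 0.0453). Near-identical copies of Tdpoz3 lie beside it, so its probe may read several of them. Oaz3, an ornithine decarboxylase antizyme of spermatids, read -3.26, -3.08 and -3.13 in NPRA-/- and -4.16, -4.07, -3.93, -3.85 and -4.26 in NPRA+/+, a difference of 0.90 ± 0.14 (adjusted p = 0.04998). A replicate block in the fit, whichever numbering of the labels it used, left 0 in place of 2. The median of the 147 relative to like signal was 0.04, against 0.05 for the flanking genes and -0.01 for the 708 tested genes of chromosome 3 outside the interval.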

How the data were processed

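Myocardial RNA of 8 samples from male mice was measured on 1-colour Agilent arrays. The authors' scanner files hold linear intensity per spot, background-subtracted within each array and not scaled between arrays, per the file headers, and Agilent Feature Extraction 11.0.1.1 is named in the submitters' processing notes. The deposited series table holds log2 values with a median of 7.05 in its columns. No source used here states its scale, centring or normalization. It ranked probes as the scanner files did, and it served as an alternative.

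Control spots were left out and spots with outlier flags set to missing. Log2 values of 1 probe's spots were averaged, and each array's 75th percentile was subtracted. Probes with at least 0.5 of their spots well above background on at least 3 of 8 arrays were tested. Probes were named by RefSeq transcript through the RefSeq table of GRCm38.p6 (27234 of 39429 probes had 1 symbol). The array design names another build, so gene places are given as an order. The promoters are RefSeq's for GRCm38.p6. The brightest probe by its mean over all arrays stood for a gene. NPRA-/- was set against NPRA+/+ in limma 3.58.1 under R 4.3.3 (lmFit, eBayes, two-sided, Benjamini-Hochberg over 35329 probes, threshold 0.05). The fit was tested on simulated data. Precision is limited by the number of arrays.

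The members and lists were chosen with earlier results of these data known. Named genes were Npr1, the 4 members nearest it on each side, the 8 of smallest p in each direction, those whose probes differ in sign, and Lmna, Mef2d, Tpm3, Adar and Mcl1. Other names are marked as chosen after their values were seen.

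Equally numbered samples of the genotypes deviated together, with correlations of 0.63, 0.28 and 0.36 by repetition number and 0.63, 0.12 and 0.30 for pairs by source name number. Both exceed 0.1 and pass as pairing, but so did unequal numbers (0.33 for NPRA-/- replicate 3 with NPRA+/+ replicate 2), and no label says that numbers are shared. By source name number, NPRA-/- replicate 1 also shares its number with NPRA+/+ replicates 2 and 3, with correlations of -0.37 each. Alternatives were other scalings, background correction, filters, probe rules, blocks, variance models, array weights, scan days and left-out arrays.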

Additional observations from a re-analysis of the deposited data

Results flagged for a closer look

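In 3 of 30 named genes checked, 1 array lay far from the other 4 of its genotype by Dixon's test, and chance marks about 1 in 20 groups. All 3 concern NPRA+/+ replicate 1, the array scanned alone on day 4. Chtop read 1.39 there, against 2.04 to 2.14 on the other NPRA+/+ arrays. Muc1 read -2.07, against -2.90 to -2.77. Adar read -1.17, against -0.88 to -0.76. At the same probes NPRA-/- replicate 1 differed from the other NPRA-/- arrays in the same direction. Chtop read 1.23 on it, against 2.03 and 2.03. Muc1 read -1.19, against -2.29 and -2.02, and Adar read -1.42, against -1.11 and -0.93.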

How the results depend on the processing

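Of the 58 flanking genes 0 passed with limma over all arrays. The count was 1 after averaging each gene's probes (Nup210l), 6 on scan day 1 alone, 7 with array weights (Rab13, Nup210l, Chrnb2, Kcnn3, Efna4, Muc1 and Rfx5), 4 without scan days 3 and 4, and 0 to 5 when each array was left out, with 5 without NPRA+/+ replicate 1 (Rab13, Nup210l, Chrnb2, Efna4 and Muc1). These fits called 185 of 19056 genes, 5979, 9761, 4134 and 4088 probes in the whole table, against 123. The 2 called genes of the rest of the interval became 0 under quantile normalization, scaling to the median, normexp, detection on all 8 arrays, the deposited table, scan day as a block, slide as a random block, averaging by source name number, eBayes with trend and robust, and quantile normalization without scan days 3 and 4. They became 39 on scan day 1, 52 with array weights, 22 without scan days 3 and 4, and 0 to 18 when each array was left out, with 18 without NPRA+/+ replicate 1. Each replicate block gave 0 in place of 2 there, 0 called flanking genes, and ended the call of Msln. Over all probes, the block by repetition number called 0 and the block by source name number 22, against 123 without a block. Among the named genes and markers the blocks changed no other call. Flanking genes without overlap, 3 over all arrays, numbered 0 under quantile normalization and in the deposited table, 5 after averaging each gene's probes, 37 on scan day 1 (63.8%, all genes 65.4%), 12 with averaging (20.7%, all genes 30.5%), 18 without scan days 3 and 4 (31.0%, all genes 43.2%) and 15 when also quantile-normalized (25.9%, all genes 35.3%). They numbered 3 to 14 when each array was left out. The median difference of the flanking genes relative to all genes, 0.02, was 0.14 under quantile normalization, -0.078 with normexp, 0.13 with detection on all 8 arrays and 0.19 in the deposited table. The shift of all probes, 0.21, was -0.08 with scaling to the median and 0.00 under quantile normalization. The cause of these changes was not tested. Signal over background limits Npr1 and the dim probes.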
